A study of Saccharomyces cerevisiae with 4 samples.

Results

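The genes described here are 38 Saccharomyces cerevisiae genes of methionine, cysteine, sulfate and S-adenosylmethionine metabolism. They were chosen by name from a list and not by a cut on their values, though with earlier results of these data known. Each had 1 probe that the platform annotation assigned to it, so 38 probes stand for 38 of the 5539 named genes and of the 6189 features of the table. One of them, ADO1, carried no value of its own on any array, as described below, which leaves 37 genes with a measurement. Each of the 4 arrays set total RNA of cells with the abf1-1 allele in channel 1 against total RNA of wild type cells in channel 2. ABF1 encodes an essential DNA-binding protein that acts at many promoters, replication origins and silencers. Both strains had grown in the rich medium YPAD at 30 °C. They then received an equal volume of medium at 42 °C and spent 45 min at 36 °C before RNA was taken. All arrays form 1 group. The sources do not name the strain background, its auxotrophic markers or the number of cultures, so the p-values measure the spread between arrays, which may be technical.

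Yeast takes up sulfate, activates it with ATP and reduces it to sulfide, which is joined to O-acetylhomoserine, a product of aspartate, to give homocysteine. Homocysteine is turned into cysteine by transsulfuration, or is methylated to methionine with a methyl group carried by folate. Methionine and ATP give S-adenosylmethionine (AdoMet), the donor for most methyl transfers, whose by-product is cleaved back to homocysteine. The activator Met4, recruited to DNA by Cbf1 or by Met31 and Met32, switches most of these genes on when sulfur amino acids run low, and the ubiquitin ligase subunit Met30 holds it in check. YPAD is made with peptone and yeast extract, which supply amino acids.

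Values below are log2 ratios centred on the median of each array. The numerator of the ratio and the log base are not stated, so a ratio is called positive or negative as deposited, base 2 is assumed, and neither strain is named as the higher. The ratios of arrays 1 and 3 resembled each other over all features, as did those of arrays 2 and 4, with Pearson r values of 0.74 and 0.86, while r between the pairs lay between -0.22 and 0.05. All 6 values are across features, which are not independent replicates. Among the 37 measured genes r was 0.72 for arrays 1 and 3, 0.95 for arrays 2 and 4, and between -0.41 and -0.05 across the pairs. The ABF1 transcript itself had 0.99, 1.69, 1.96 and 1.82 on arrays 1 to 4. Because abf1-1 is an allele that changes the protein, not a deletion, this ratio is no check of the labels.

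Of the 38 genes 1 passed the test, MET13, with a negative ratio. The test was limma's moderated test of the mean ratio against 0, with a Benjamini-Hochberg adjusted p below 0.05 over all features, and a gene that passed it is said here to be called. Over the whole table limma called 3.23% of features, 1.37% positive and 1.86% negative, so the share among the 38 genes, 2.63%, was close to that of the table. The means of 25 genes were negative and those of 13, ADO1 included, were positive, with a median of -0.14, beside a median of 0.02 over all features, of which 47.5% had a negative mean. The median of the 38 genes was -0.06 without array 2, and it was 0.14 if arrays 2 and 4 are given the opposite sign. At an unadjusted limma p below 0.05 stood 6 of the 38 genes, or 15.8%, beside 20.8% of all features, and the counts by role at that level are to be read against this share. SUL1, MET4 and MET32 had means at 0.00 whose sign changed with the processing of the arrays. The ratio kept 1 sign on all 4 arrays in 9 genes, 7 negative and 2 positive, or 23.7%, where 31.1% of all features did, 16.4% negative and 14.7% positive. The 7 negative genes were MET13, MET6, SAM2, MHT1, MET30, MMP1 and MET5, and the 2 positive ones were MET16 and SUL2. For 28 of the 38 genes the SD over the arrays was larger than the size of the mean, as it was for 4153 of the 6189 features.

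**Figure D1:**
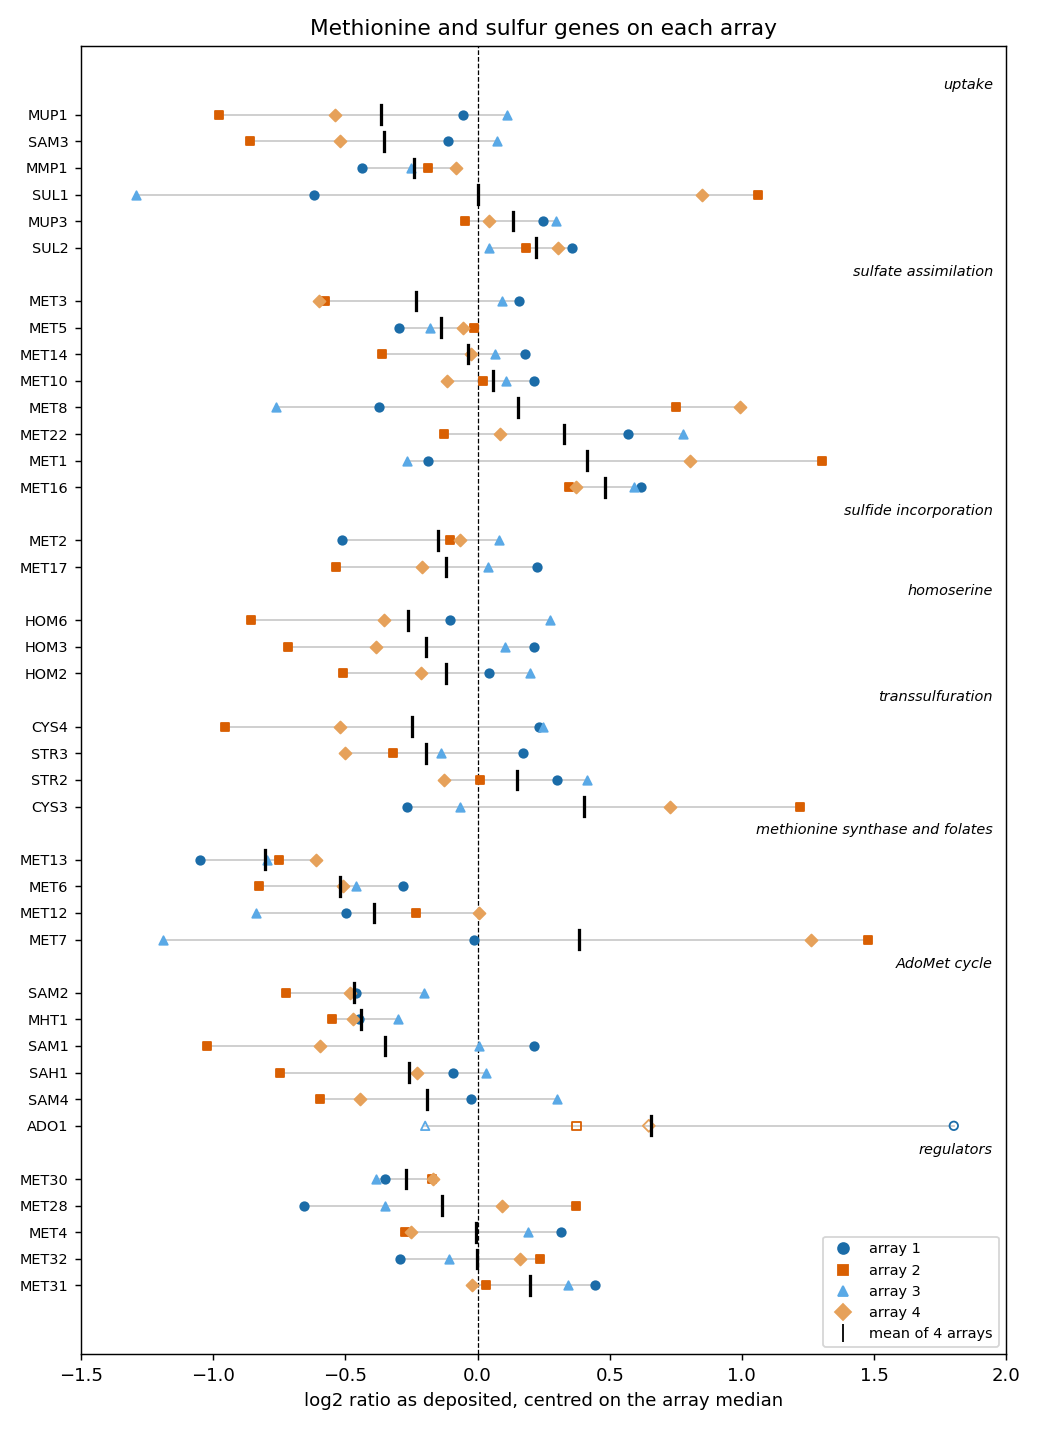
Log2 ratio of each of the 38 genes on arrays 1 to 4 (horizontal axis, centred on the array median), grouped by role and sorted by the mean within a role. Each symbol is 1 array and each black bar is the mean of 4 arrays, with open symbols for ADO1. MET13 lies between -1.05 and -0.61 on every array, whereas SUL1 and MET7 have points far on both sides of 0.

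The genes that supply and use methyl groups for homocysteine held the called gene. MET13 (YGL125W) encodes the main methylenetetrahydrofolate reductase, which makes the folate that carries the methyl group. It had -1.05, -0.75, -0.80 and -0.61 on arrays 1 to 4. All 4 arrays were thus negative, array 1 most and array 4 least. The mean was -0.80 ± 0.18 (SD, n = 4), with a 95% interval from -1.09 to -0.52 and a limma adjusted p of 0.0319. On a log2 scale that is a 1.74-fold difference between the strains. By absolute mean ratio MET13 ranked 157 of the 6189 features. With 1 array left out its mean lay between -0.87 and -0.72 and its adjusted p between 0.101 and 0.204, in fits that called 0 to 22 features of the whole table. With arrays 2 and 4 given the opposite sign its mean was -0.12, and it was not called.

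MET6 (YER091C), for the methionine synthase that uses that methyl group, was next in size with -0.28, -0.83, -0.46 and -0.51. Every array was negative, array 2 most and array 1 least, and the mean of -0.52 ± 0.23 (SD, n = 4) had a limma adjusted p of 0.0997, above the threshold. MET12 encodes a second methylenetetrahydrofolate reductase, and had -0.50, -0.23, -0.84 and 0.00. It was negative on arrays 1 to 3 and close to 0 on array 4, averaging -0.39 ± 0.36 (adjusted p 0.247). MET7 encodes folylpolyglutamate synthetase, which adds glutamates to folates. Its ratios of -0.01, 1.48, -1.19 and 1.26 were the most scattered of the 38 genes, with a mean of 0.38 ± 1.24. It was high on arrays 2 and 4 and low on array 3, so its mean describes none of the arrays.

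**Figure D2:**
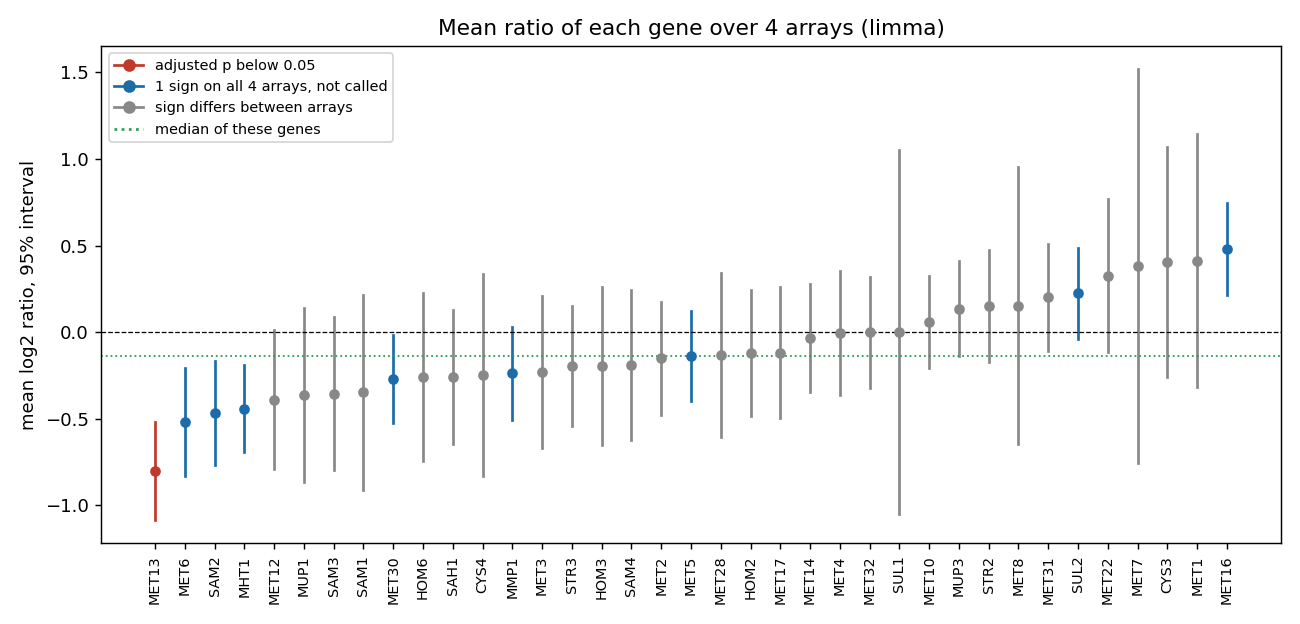
Mean log2 ratio over 4 arrays (vertical axis) of the 37 genes with a measurement, sorted by mean, with limma's 95% interval for each. Red marks the called gene MET13, blue the 8 genes with 1 sign on all arrays that were not called, grey the others, and the dotted line the median of these genes. The intervals of MET13, MET6, SAM2, MHT1 and MET30 lie below 0 and that of MET16 lies above it.

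In the AdoMet cycle 5 of 6 genes had negative means, and the other was ADO1, which had no value of its own. By limma 0 were called at the adjusted threshold. At an unadjusted p below 0.05 there were 2, SAM2 and MHT1. SAM2 (YDR502C), for an AdoMet synthetase, had -0.46, -0.72, -0.20 and -0.48, averaging -0.47 ± 0.21 (SD, n = 4; adjusted p 0.114). MHT1 (YLL062C), for the enzyme that methylates homocysteine with S-methylmethionine, had -0.45, -0.55, -0.30 and -0.47. Its SD was the smallest of all 38 genes, with a mean of -0.44 ± 0.11 (adjusted p 0.0891). Both genes were negative on all arrays.

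SAM1, for the other AdoMet synthetase, differed between the arrays, with 0.22, -1.02, 0.01 and -0.60 on arrays 1 to 4, so that only arrays 2 and 4 were negative. Its mean was -0.35 ± 0.57. SAH1, for the hydrolase that cleaves S-adenosylhomocysteine, had -0.09, -0.75, 0.03 and -0.23, and SAM4, for the enzyme that methylates homocysteine with AdoMet, had -0.03, -0.60, 0.30 and -0.45. Both stood near 0 or above it on arrays 1 and 3 and below 0 on arrays 2 and 4. ADO1 encodes adenosine kinase, which removes the adenosine set free in that cleavage. Its deposited ratios were 1.79, 0.41, -0.22 and 0.67, and each is the value that many probes of the array share exactly, 41, 46, 41 and 35 of them on arrays 1 to 4. In all, 27 features carried it on every array, ADO1 among them. No source used here says what it stands for, so the mean of 0.66 is no measurement of ADO1 and the gene is left undescribed.

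Of the 6 uptake genes MUP1, SAM3 and MMP1 had negative means, MUP3 and SUL2 positive ones, and SUL1 a mean at 0. None was called, and none had an unadjusted limma p below 0.05 (0 of 6). SUL1 and SUL2 encode the high-affinity sulfate permeases. SUL1 had -0.62, 1.06, -1.29 and 0.85 on arrays 1 to 4. It was strongly negative on arrays 1 and 3 and as strongly positive on arrays 2 and 4, so that the mean came to 0.00 ± 1.14 (SD, n = 4). SUL2 had 0.36, 0.18, 0.04 and 0.31, averaging 0.22 ± 0.14 (adjusted p 0.307), and was weakly positive throughout.

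MUP1, for the high-affinity methionine permease, had -0.06, -0.98, 0.11 and -0.54, with a mean of -0.37 ± 0.49. SAM3, for the AdoMet permease, had -0.11, -0.86, 0.07 and -0.52, with a mean of -0.36 ± 0.42. In both genes arrays 2 and 4 lay well below arrays 1 and 3, and the limma adjusted p was 0.367 for MUP1 and 0.325 for SAM3. MMP1, for the S-methylmethionine permease, was negative on all arrays with -0.44, -0.19, -0.25 and -0.08, at a mean of -0.24 ± 0.15. MUP3, for a low-affinity methionine permease, ranged from -0.05 to 0.30.

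Sulfate assimilation held the positive gene with the smallest p. MET16 (YPR167C), for the reductase that turns activated sulfate into sulfite, had 0.62, 0.34, 0.59 and 0.37. All arrays were positive, with arrays 1 and 3 somewhat higher, and the mean of 0.48 ± 0.14 (SD, n = 4) had a limma adjusted p of 0.0847. That gene was the 1 of 8 in this branch with an unadjusted p below 0.05, and 0 of 8 were called. The enzymes before it did not share its sign on all arrays. MET3, for ATP sulfurylase, had 0.16, -0.58, 0.09 and -0.60, and MET14, for adenylylsulfate kinase, had 0.18, -0.36, 0.07 and -0.02.

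MET22 encodes the phosphatase that clears the nucleotide left over when Met16 has acted. It had 0.57, -0.13, 0.78 and 0.08, with arrays 1 and 3 well above the other two, and a mean of 0.33 ± 0.42. The sulfite reductase subunit genes stayed near 0, with MET5 between -0.30 and -0.01 and MET10 between -0.11 and 0.21. MET1 and MET8 encode the enzymes that make siroheme, the cofactor of sulfite reductase. MET1 had -0.19, 1.30, -0.27 and 0.80 and MET8 had -0.37, 0.75, -0.76 and 0.99. Both were negative on arrays 1 and 3 and clearly positive on arrays 2 and 4, unlike the reductase subunits themselves.

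From aspartate to homocysteine no gene was called, and 0 of 5 had an unadjusted limma p below 0.05. HOM3, for aspartate kinase, had 0.21, -0.72, 0.11 and -0.38, and HOM2, for the dehydrogenase after it, had 0.04, -0.51, 0.20 and -0.22. HOM6, for homoserine dehydrogenase, had -0.11, -0.86, 0.27 and -0.35. All were lowest on array 2, next lowest on array 4 and highest on array 1 or 3. CYS4, SAM1, SAM3, SAM4, SAH1 and MUP1 were also lowest on array 2 and next lowest on array 4. The order is thus not particular to this branch. MET17, for the enzyme that joins sulfide to O-acetylhomoserine, had the same order of arrays as HOM3, with 0.23, -0.53, 0.04 and -0.21. The RefSeq table places part of MET17 under the overlapping gene YLR302C, so a probe there may read both. MET2, for homoserine O-acetyltransferase, had -0.51, -0.10, 0.08 and -0.07.

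The 4 transsulfuration genes were split, with 0 called and 0 at an unadjusted limma p below 0.05. CYS4, for cystathionine beta-synthase, and CYS3, for cystathionine gamma-lyase, catalyse consecutive steps from homocysteine to cysteine. CYS4 had 0.23, -0.95, 0.25 and -0.52 on arrays 1 to 4. CYS3 had -0.27, 1.22, -0.07 and 0.73 on the same arrays. On each of the arrays these 2 genes thus had opposite signs. STR3 and STR2, for the enzymes of the reverse route, had means of -0.20 ± 0.29 and 0.15 ± 0.25 (SD, n = 4).

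Among the 5 regulators 0 were called by limma, and MET30 had an unadjusted p below 0.05. MET30, for the F-box protein that marks Met4 for ubiquitination, had -0.35, -0.17, -0.39 and -0.17. It was negative on all arrays, averaging -0.27 ± 0.11 (SD, n = 4; adjusted p 0.221). MET4, for the activator, had 0.32, -0.27, 0.19 and -0.25, so that positive and negative arrays gave a mean of 0.00. Of its partner genes, MET28 ranged from -0.66 to 0.37, MET32 from -0.29 to 0.24 and MET31 from -0.02 to 0.45. MET28 and MET32 were negative on arrays 1 and 3 and positive on arrays 2 and 4, the reverse of MET4.

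The split between the pairs of arrays took up much of the spread. In 7 genes both arrays 1 and 3 were negative and both arrays 2 and 4 positive: SUL1, MET1, MET8, CYS3, MET7, MET28 and MET32. That is 18.4% of the 38, beside 18.0% of all features. In 8 genes the signs were the other way: MET3, MET14, MET17, HOM3, HOM2, CYS4, SAM1 and MET4. They make up 21.1%, beside 16.9% of all features. The median over the 38 genes was 0.02 for the mean of arrays 1 and 3 and -0.15 for that of arrays 2 and 4. A limma fit with a term for the pair counts as error only the scatter inside each pair and none of the disagreement between them. In that fit 14 of the 38 genes passed, 10 negative and 4 positive, where 32.7% of all features did. Of the 6189 features 990 passed with a negative mean and 1031 with a positive one. The difference in direction was not tested. With the signs of arrays 2 and 4 turned, in case the ratios of the pairs run in opposite directions, 2 of the 38 genes were called, SUL1 and MET8, beside 4.88% of all features, and MET13 was not. The labels name no batch, culture or dye orientation that parts the arrays in this way, and which of these goes with the split was not tested.

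**Figure D3:**
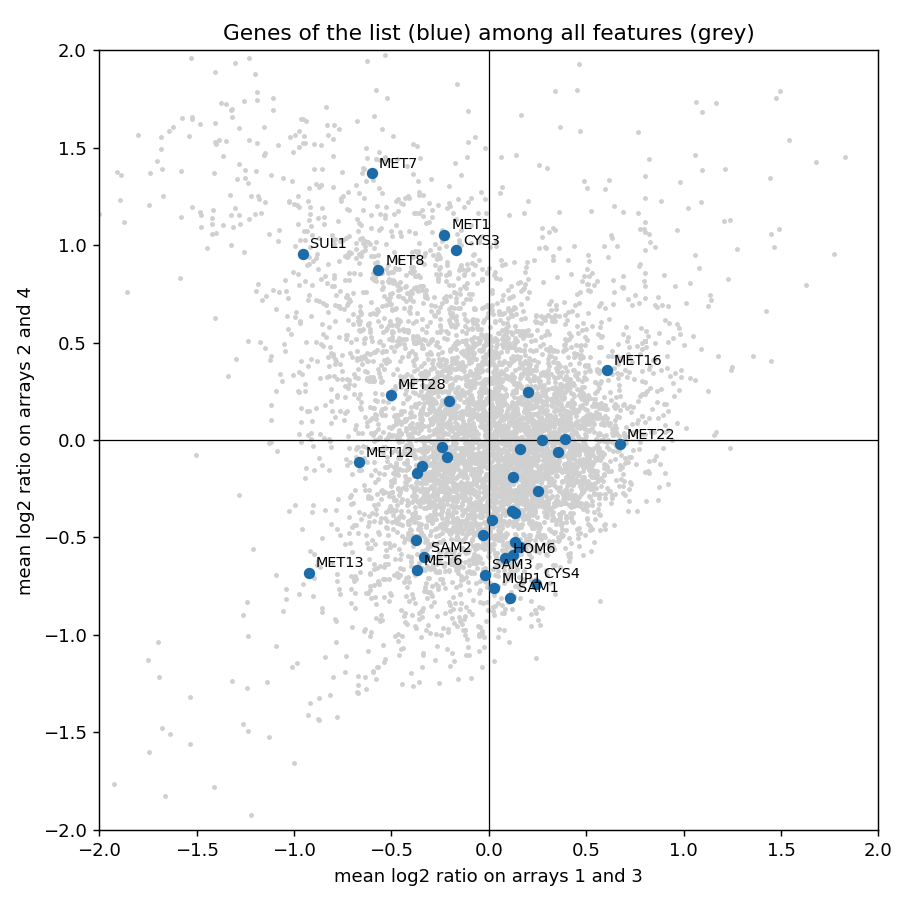
Mean log2 ratio on arrays 1 and 3 (horizontal axis) against the mean on arrays 2 and 4 (vertical axis), with the 37 measured genes in blue, the more distant ones named, and all features in grey. The axes leave out 17 features. MET13 is far on the negative side of both axes, MET16 is positive on both, and MET7, SUL1, MET8, MET1 and CYS3 are in the part that is negative on arrays 1 and 3 and positive on arrays 2 and 4.

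Related genes of the list often took different values on the same array. The difference between MET13 and its isozyme gene MET12 was -0.41 ± 0.30 (SD, n = 4), with MET13 the lower on 3 of 4 arrays, and that between SAM2 and SAM1 was -0.12 ± 0.43, with SAM2 the lower on 2 arrays. The genes of each of these pairs encode similar enzymes, and if a probe takes up RNA of the sister gene the difference between them is understated. SUL1 and SUL2 differed by -0.22 ± 1.10 and MET31 and MET32 by 0.20 ± 0.47, the sign changing between arrays in both cases. MUP1 lay below MUP3 on all 4 arrays, by -0.50 ± 0.33.

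Members of the list that are neighbours were SAM3, SAM4, MMP1 and MHT1. SAM3 and SAM4, for a permease and a methyltransferase of AdoMet, are next to each other on the chromosome, and so are MMP1 and MHT1, for the corresponding proteins of S-methylmethionine. SAM3 and SAM4 had values that differed by -0.16 ± 0.10 on the same array, and MMP1 and MHT1 by 0.20 ± 0.20. Across these neighbourhoods SAM3 and its relative MMP1 differed by -0.12 ± 0.52, and SAM4 and MHT1 by 0.25 ± 0.31. The SD of the difference was larger between relatives than between neighbours in these 4 comparisons, but the mean differences were of like size, and neither was tested. The mean of MET13 did not share its sign with those of its neighbours, as SCS3 had 0.35 ± 0.23 and MON1 0.18 ± 0.23.

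**Figure D4:**
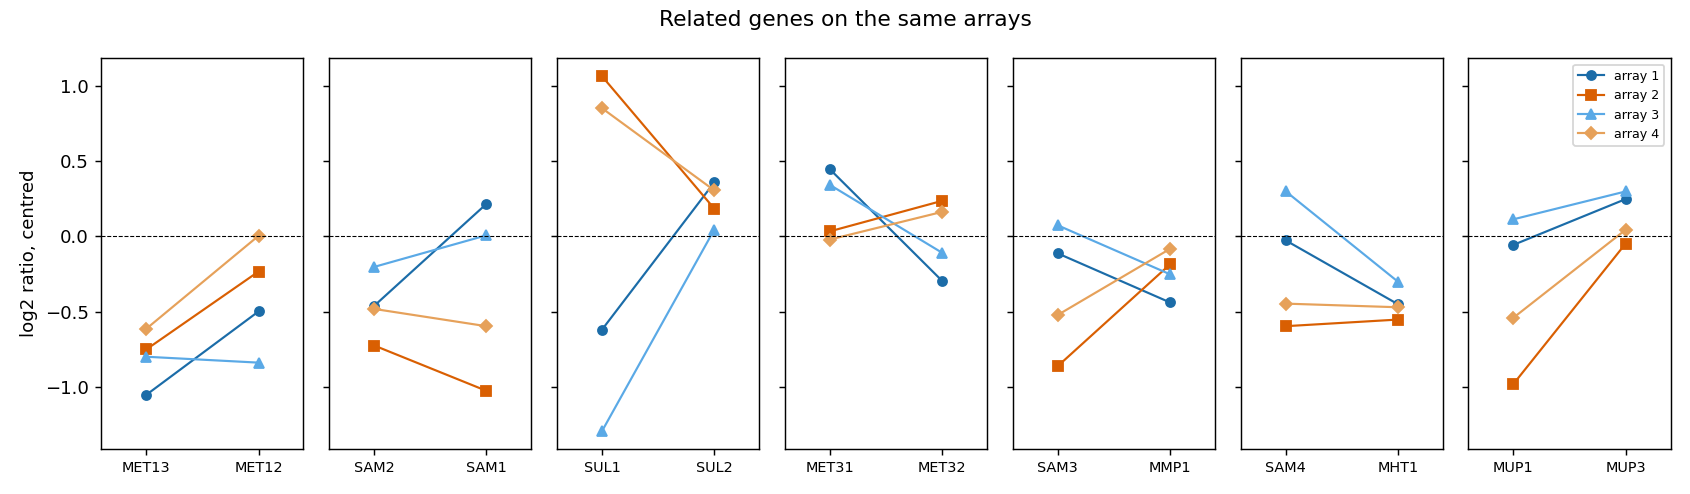
Log2 ratio (vertical axis) of 7 pairs of related genes, with 1 line per array joining the values of both genes. The lines of SUL1 fan out from -1.29 to 1.06 and those of SUL2 keep within 0.04 and 0.36, and every line from MUP1 to MUP3 runs upward.

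Of 48 further genes of sulfur, folate and methyl metabolism and of Met4 control, 47 were measured and 2 were called, both negative, beside the 3.23% of all features. GNP1, for an amino acid permease that also carries cysteine and methionine, had -0.85, -0.88, -0.68 and -0.64, averaging -0.77 ± 0.12 (SD, n = 4; limma adjusted p 0.0289). TRX1, for a thioredoxin that hands electrons to Met16, had -0.65, -1.32, -0.62 and -1.12, averaging -0.93 ± 0.35 (adjusted p 0.0456). All arrays were negative for both genes, and TRX1 was lower on arrays 2 and 4. With 1 array left out, where at most 22 features of the table were called, the mean lay between -0.81 and -0.73 for GNP1 (adjusted p up to 0.204) and between -1.03 and -0.80 for TRX1 (up to 0.263). TRX1 was not called with quantile normalization. Means were negative in 26 of the 47 genes and positive in 21, with a median of -0.06. The ratio kept 1 sign on all arrays in 22, or 46.8%, 13 negative and 9 positive. Over all features 31.1% did, 16.4% negative and 14.7% positive. These further genes were listed with earlier results of these data known, and the difference in share was not tested. One of the 47, SOA1, had the value shared by many probes on 3 arrays.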

How the data were processed

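The table deposited by the authors holds a log ratio for each of 6226 probes on each array, read as log2 from range and sign, with 0 missing values and 0 columns without a sample. How the authors made these log2 values (dyes, scanner, background correction, normalization, direction of the ratio) is not recorded in the labels or in the deposited table. There is no spot brightness, so precision is limited by the number of arrays. GEO's platform annotation named 5576 probes with 1 gene, 0 with several and 650 with none. Symbols were updated through the RefSeq table of assembly R64, which also gave gene order. The median of each array was subtracted, and probes of 1 gene were averaged. Over all 6189 features an intercept was fitted with lmFit and eBayes of limma 3.58.1 (R 4.3.3), two-sided, with Benjamini-Hochberg adjustment. That script was tested on simulated data with independent noise on each array. Such data lack the likeness within the pairs of arrays, so the test says nothing on how that affects the p-values. Tables and plots were made with Python 3.11.15, pandas 2.3.3 and matplotlib 3.10.9. Each ratio already compares RNA of both strains on the same array. No pairing of samples beyond this was possible because the samples form 1 group, so that no replicate number joins samples of different groups.

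The genes, the lists and the tests were chosen with earlier results of these data known. Every listed gene is given with its value on each array, its range or its mean. Of the further sulfur genes those called are named, and some that were not called. Leaving out ADO1 was added after its values were seen. Promoter and protein sequences were not used here.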

Additional observations from a re-analysis of the deposited data

How the results depend on the processing

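Each ratio already compares RNA of both strains on the same array. No pairing of samples beyond this was possible because all samples form 1 group and no replicate number joins 2 groups. MET13 stayed called without centring, with equal spread, quantile normalization, array weights, robust eBayes and the pair term. It also stayed called with single probes and with shared values set to missing. MET13 has 1 probe and no shared value, so these last settings could hardly alter its call. It was not called with any 1 array left out or with the signs of arrays 2 and 4 turned. Limma called 200 features in all, 98 with quantile normalization and 2 at an adjusted p below 0.01, where 0 of the 38 genes and 0 of the further sulfur genes passed. Of those further genes 2 were called, but 1 with quantile normalization, where TRX1 missed the threshold. The pair term raised the calls to 2021 of 6189 features, or 32.7%, with 990 negative and 1031 positive. It called 25 of the 47 further sulfur genes, 13 negative and 12 positive. Of the 38 genes of the list it called 14, 10 negative and 4 positive. With any 1 array left out, limma called 0 to 22 features in all, 0 of them in the list and 0 among the further genes. At an unadjusted p below 0.05 these fits had 5 to 8 genes of the list, beside 12.2% to 17.2% of all features. The median of the 38 means then lay between -0.19 and -0.060.

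After turning the signs of arrays 2 and 4, limma called 302 features, 0 further sulfur genes and 2 genes of the list, both negative, SUL1 at -0.96 and MET8 at -0.72. The median became 0.14, and 15 genes of the list kept 1 sign on all arrays. These are the 7 and the 8 genes whose deposited signs were opposite between the pairs. Of all features 18.0% and 16.9% had these 2 patterns. Means became negative for MET7 (-0.98), MET1 (-0.64), CYS3 (-0.57) and SUL2 (-0.022), and for ABF1 (-0.14), JLP1 (-0.35), YCT1 (-0.24) and BDS1 (-0.065). They became positive for CYS4 (0.49), SAM1 (0.46), MUP1 (0.39), MET3 (0.36), HOM3 (0.35), HOM6 (0.34), SAM3 (0.34), SAM4 (0.33), MET4 (0.26), MET17 (0.25), HOM2 (0.24), SAH1 (0.23), STR3 (0.21), MET14 (0.16), MET6 (0.15), SAM2 (0.14) and MHT1 (0.068), and for TRX1 (0.29) and OPT1 (0.024). The cause was not tested.

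Means close to 0 changed sign elsewhere. SUL1 was -0.049 with equal spread and -0.032 with quantile normalization, and MET4 was 0.0080 and 0.0028 under these settings. MET32 was 0.00082 without centring, 0.0022 with array weights and 0.00055 with shared values missing. With 1 array left out, SUL1 ranged from -0.35 to 0.43, MET8 from -0.13 to 0.46, MET14 from -0.11 to 0.074, MET17 from -0.23 to 0.019, HOM2 from -0.23 to 0.0092, MET4 from -0.11 to 0.085, MET28 from -0.30 to 0.039 and MET32 from -0.080 to 0.097.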

Other observations

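Of the 47 further genes 9 had positive ratios on all 4 arrays and 13 had negative ones. Of the positive genes 4 are given here, picked after their values were seen and standing for no list. SER3, also positive on all arrays, is not among them and had a mean of 0.66 (limma adjusted p 0.111). MEU1, negative on all arrays with a mean of -0.53, had a smaller limma adjusted p, 0.0697, than any of the 4. JLP1, for a dioxygenase that frees sulfite from sulfonates, had 0.41, 0.78, 0.16 and 1.20 on arrays 1 to 4. YCT1, for a cysteine transporter, had 0.52, 0.64, 0.18 and 1.03, and BDS1, for a sulfatase, had 0.23, 0.39, 0.44 and 0.54. IRC7, for a beta-lyase that acts on cysteine conjugates, had 1.42, 0.35, 1.30 and 0.51. JLP1 and YCT1 were highest on array 4 and IRC7 on arrays 1 and 3. OPT1, for a glutathione transporter, was negative on all arrays, between -0.19 and -0.10. None of these genes was called, with limma adjusted p-values of 0.141 for JLP1, 0.118 for YCT1, 0.116 for BDS1 and 0.0997 for IRC7.

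The difference between the mean of arrays 2 and 4 and that of arrays 1 and 3 went with gene length over all named genes (Spearman rho 0.31, n = 5535 genes, which share the arrays and are not replicates). Over the 38 genes of the list rho was 0.14.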
